A study of Microtus ochrogaster with 34 samples.

Results

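The genes described here were moderately higher in summer testes than in regressed winter testes. By group mean on the deposited scaling, they stood near the summer level in the testes of winter males that kept spermatogenesis. They were taken by group means of the RPKM values (reads scaled for exon length and library size) as deposited. A member had an S mean of at least 10 RPKM, an S mean at least 3 and under 16 times the W- mean, and a W+ mean between 0.9 and 1.1 times the S mean. This rule gave 122 of the 23038 genes in the table, and all 122 were among the 19185 genes kept for testing after removal of low values. Since the 3 group means chose the members, their contrasts between groups are given as a description, and no test of a member is read as a result.

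The study followed wild-type males of the fossorial water vole Arvicola terrestris scherman (ATS), trapped in the pastures of Puy-de-Dôme in France, and compared males caught in summer and in winter. Polyadenylated RNA of whole testis was sequenced from 34 males, and each library is 1 animal. The S group holds 18 males caught in July or August. The W- group holds 11 males caught in January or February that did not maintain spermatogenesis, with seminiferous tubules that were empty or in an intermediate state, and the W+ group holds 5 males of the same winter months with complete spermatogenesis. No animal was treated, and the S and winter groups differ in season as well as in the state of the testis. W- pools the empty and the intermediate histology, and the labels do not say which library had which. Reads were aligned to the genome of another species, the prairie vole Microtus ochrogaster, which is also the organism named in the labels, so a gene's level also depends on how well ATS reads match that genome.

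In a seasonal breeder the testis regresses outside the breeding season: meiosis and spermatid differentiation stop, the tubules shrink, and mainly Sertoli cells and spermatogonia remain. Spermatogenesis runs from spermatogonia through meiotic spermatocytes to round and elongating spermatids, and each stage has its own transcripts. Whole-testis RNA therefore changes with the makeup of the tissue. In such bulk samples, fewer cells of a type and less RNA per cell cannot be told apart. The table names genes only by prairie vole Ensembl identifiers and pairs none of them with a symbol, so the members are described by their values, and their cell type and function, like the tissue markers, were not analysed here.

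Counted reads per library were recovered from the RPKM values. They ranged from 5534633 to 63857259 in S, from 4960104 to 8576453 in W+ and from 2938627 to 9653984 in W-. The 4 deepest libraries were S replicates 12 to 15, and the shallowest was W- replicate 5. A median member had 444.5 reads in the median S library, 452 in W+ and 161 in W-. Together the members took 1.32 to 1.75% of counted reads in S, 1.50 to 2.21% in W+ and 0.322 to 0.693% in W-.

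Among the members, the S mean had a median of 37.4 RPKM and ran from 10.2 to 465 RPKM. The W- mean had a median of 8.56 RPKM with an interquartile range of 3.93 to 17.2 RPKM. It was at least 5 RPKM in 85 members and under 1 RPKM in 1 member, so most members were still well detected in regressed testes. The W+ mean had a median of 36.0 RPKM and ran from 10.2 to 433 RPKM. The S/W- ratio had a median of 4.12: it was 3 to 4 in 56 members, 4 to 8 in 50 and 8 or more in 16. The W+/S ratio had a median of 0.952 and was under 1 in 99 members and 1 or more in 23. The members thus lay mostly at the low end of the permitted S/W- range and below rather than above the S mean in W+.

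At the lower limits of the rule, genes lay close on both sides. The member with the lowest S mean was at 10.2 RPKM, and the nearest gene outside was at 9.96 RPKM. The smallest S/W- ratio inside was 3.00 and the nearest outside was 2.97. At the lower W+/S limit, the nearest values were 0.9009 inside and 0.8996 outside. At the upper limits few genes were left out: the largest S/W- ratio inside was 13.0, the next outside was 18.7, and only 4 genes failed by that limit alone. The largest W+/S ratio inside was 1.092 and the nearest outside was 1.101, again with 4 genes failing by that limit alone.

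Read within the genes of the same S and S/W- limits, whatever their W+ level, the members form the upper edge of the distribution. Of 1648 such genes, 472 had a W+/S ratio under 0.6, 1050 a ratio of 0.6 to 0.9, 122 were members and 4 were above 1.1. The median W+/S ratio of the 1648 genes was 0.691, with an interquartile range of 0.578 to 0.797, while over all genes tested it was 0.957. On the deposited scaling, full W+ level was therefore the exception among genes moderately high in S, at 7.40% of them. Yet 2303 of the 8278 genes with an S mean of 10 RPKM or more had a W+/S ratio in the same window. The number depends on scaling and libraries: the rule took 292 genes scaled by total counted reads and 273 without W+ replicate 1, against 122.

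**Figure D1:**
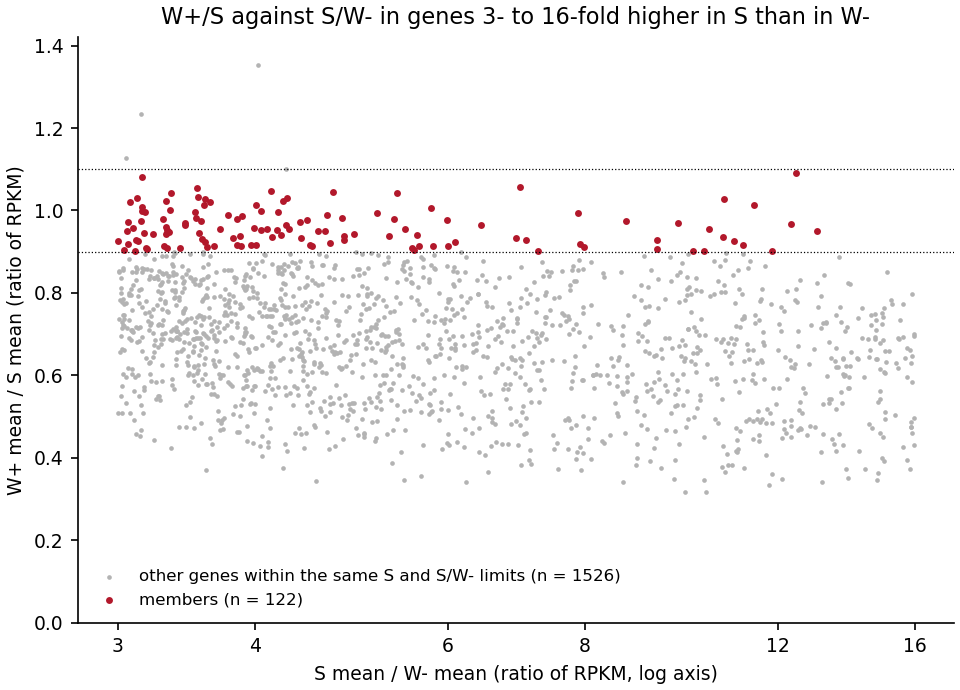
W+/S ratio of mean RPKM (vertical) against the S/W- ratio of mean RPKM (horizontal, log axis) for the 1648 genes with an S mean of at least 10 RPKM and an S/W- ratio of at least 3 and under 16. Each point is 1 gene, the 122 members are red and the dotted lines mark ratios of 0.9 and 1.1; the grey genes, with 4 exceptions above the window, lie below the members, and the red points thin out to the right.

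The share of members was highest where the S/W- ratio was lowest. It was 56 of 479 genes (11.7%) at ratios of 3 to 4, 40 of 489 (8.18%) at 4 to 6, 10 of 239 (4.18%) at 6 to 8, 13 of 271 (4.80%) at 8 to 12 and 3 of 170 (1.76%) at 12 to 16. The share with a W+/S ratio under 0.6 ran the other way, from 17.3% at ratios of 3 to 4 to 41.8% at 12 to 16. Across the 1648 genes, Spearman's rho between the S/W- and W+/S ratios was -0.28. Both ratios hold the S mean, so they share its sampling error. By S level, members were 34 of 282 genes (12.1%) at S means of 10 to 20 RPKM and 17 of 526 (3.23%) at 100 RPKM or more. Exon length, recovered from the value of a single read, showed no such gradient: rho with the W+/S ratio was 0.014, and the median was 1910 bases in members, 1971 bases in the genes with a ratio under 0.6 and 1709 bases in all genes tested. The shortest member had 83 bases and the longest 15373 bases, and 19 of 122 (15.6%) were under 1000 bases against 27.7% of all genes tested. That share was also below the 27.7% in the genes with a ratio under 0.6 (20.8%) and of 0.6 to 0.9 (18.2%). Over 5000 bases were 14 of 122 members (11.5%), against 7.03% of all genes tested. In the genes with a ratio under 0.6 this share was 7.63%, and in those of 0.6 to 0.9 it was 7.43%.

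By limma on log2(RPKM + 0.1) over all 34 libraries, with Benjamini-Hochberg adjusted p under 0.05 and a log2 fold change beyond 1, all 122 members were higher in S than in W- (background 28.7% of genes tested) and all 122 were higher in W+ than in W- (background 21.9%). None was called between W+ and S (background 1.19% higher and 7.04% lower in W+), by limma on RPKM or by voom on recovered reads, and 0 members passed an unadjusted p of 0.05. These counts follow from the rule, and the 3 comparisons share their libraries. The median log2 fold change over members was 2.08 for S against W-, 2.01 for W+ against W- and -0.09 for W+ against S, beside 0.04, -0.02 and -0.06 over all genes tested. For W+ against S, the standard error of a member's log2 fold change had a median of 0.19 and ran from 0.10 to 0.64. It exceeded the upper edge of the window, 0.14 on the log2 scale, in 104 of 122 members. By this error, a true W+ level outside 0.9 to 1.1 was possible for most of them. The fit takes 1 spread per gene from all 34 libraries, so the error includes the scatter within W-. The SD of a member's log2 values had a median of 0.53 in W-, 0.37 in W+ and 0.23 in S. An error from S and W+ alone is not given here.

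The W+/S ratio also rests on how libraries are scaled. The deposited values are scaled by size factors, not by total reads. Scaled by total counted reads, the median W+/S ratio of the members was 1.20, and none of the 122 was chosen again by the rule. The whole distribution moved with them: the median log2 fold change of all genes tested, W+ against S, shifted by 0.31. Relative to that median gene, the members stood at -0.03 as deposited and at 0.01 by totals. The median W+/S ratio of the 1648 genes was 0.875 by totals.

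The most abundant member, ENSMOCG00000000177, has a recovered exon length of 135 bases. Its 18 S values ran from 292 to 577 RPKM with a median of 467 RPKM, its 11 W- values from 61.5 to 207 RPKM with a median of 111 RPKM, and W+ replicates 1 to 5 had 307, 450, 537, 475 and 398 RPKM. All 5 W+ values lay within the S range and above every W- value. The group means were 465 ± 67.4 RPKM in S (SD, n = 18), 130 ± 42.9 RPKM in W- (SD, n = 11) and 433 ± 86.7 RPKM in W+ (SD, n = 5), an S/W- ratio of 3.58 and a W+/S ratio of 0.932.

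ENSMOCG00000019422, the second most abundant member, had a much wider gap to W-. Its S values ran from 279 to 540 RPKM with a median of 448 RPKM, its W- values from 1.72 to 65.6 RPKM with a median of 45.7 RPKM, and W+ replicates 1 to 5 had 253, 403, 418, 498 and 478 RPKM. W+ replicate 1 was below all 18 S values and the other 4 W+ values were within their range. Means were 443 ± 51.1 RPKM in S (SD, n = 18), 40.5 ± 18.1 RPKM in W- (SD, n = 11) and 410 ± 96.1 RPKM in W+ (SD, n = 5). The S/W- ratio was 10.9 and the W+/S ratio 0.926.

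Among the 10 members with the highest S means, S means ran from 153 to 465 RPKM, W- means from 17.3 to 130 RPKM and W+ means from 153 to 433 RPKM. In all 10, every S value was above every W- value, and in 9 every W+ value was too. Only 1 of the 10 had all 5 W+ values within the S range, and in 7 W+ replicate 1 was the lowest W+ value. The fourth most abundant shows how a mean near the S mean can cover scattered animals: W+ replicates 1 to 5 had 152, 313, 94.3, 262 and 291 RPKM against an S range of 178 to 294 RPKM. Its W- values ran from 13.5 to 101 RPKM, so W+ replicate 3 overlapped them, and its W+/S ratio of 0.933 is the mean of 2 values below the S range, 1 above it and 2 within. The eighth was tighter: W+ replicates 1 to 5 had 149, 186, 165, 214 and 205 RPKM against an S range of 154 to 214 RPKM and a W- range of 12.7 to 55.5 RPKM, with a W+/S ratio of 0.990 and only replicates 1 and 4 just outside the S range.

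The 5 members with the largest S/W- ratios had ratios of 11.4 to 13.0, with S means from 11.6 to 216 RPKM. The one at 13.0 was the most variable member in S: its S values ran from 3.20 to 88.0 RPKM with a median of 17.2 RPKM, its W- values from 0 to 3.28 RPKM, and W+ replicates 1 to 5 had 31.6, 10.9, 19.2, 7.99 and 24.9 RPKM. Here the S and W- ranges overlapped, and W+ replicate 1 was the highest W+ value. The member with a ratio of 12.5 had the highest W+/S ratio of all, 1.092: its S values ran from 101 to 278 RPKM, its W- values from 0.160 to 34.6 RPKM, and W+ replicates 1 to 5 had 114, 285, 224, 259 and 300 RPKM. Replicate 1 was near the bottom of the S range while replicates 2 and 5 were above its top.

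The 5 members with the smallest S/W- ratios, 3.00 to 3.07, had S means from 18.3 to 269 RPKM, and in all 5 the W+ values were above every W- value with W+ replicate 1 lowest. The one at 3.00 was among the most even: its S values ran from 15.3 to 23.9 RPKM, its W- values from 3.61 to 9.40 RPKM, and W+ replicates 1 to 5 had 14.0, 18.6, 18.4, 17.1 and 16.6 RPKM. Another, with the smallest spread in W- of all members (coefficient of variation 8.52%), had W- values between 12.8 and 17.6 RPKM. Its S values ran from 36.5 to 77.0 RPKM, and W+ replicates 1 to 5 had 26.8, 60.1, 28.5, 33.1 and 66.9 RPKM, 3 of them below the S range. The largest spread in W+, 66.3%, belonged to the 83-base member, where W+ replicates 1 to 5 had 4.55, 23.3, 14.0, 6.18 and 26.6 RPKM and the median W- library held 4 reads.

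**Figure D2:**
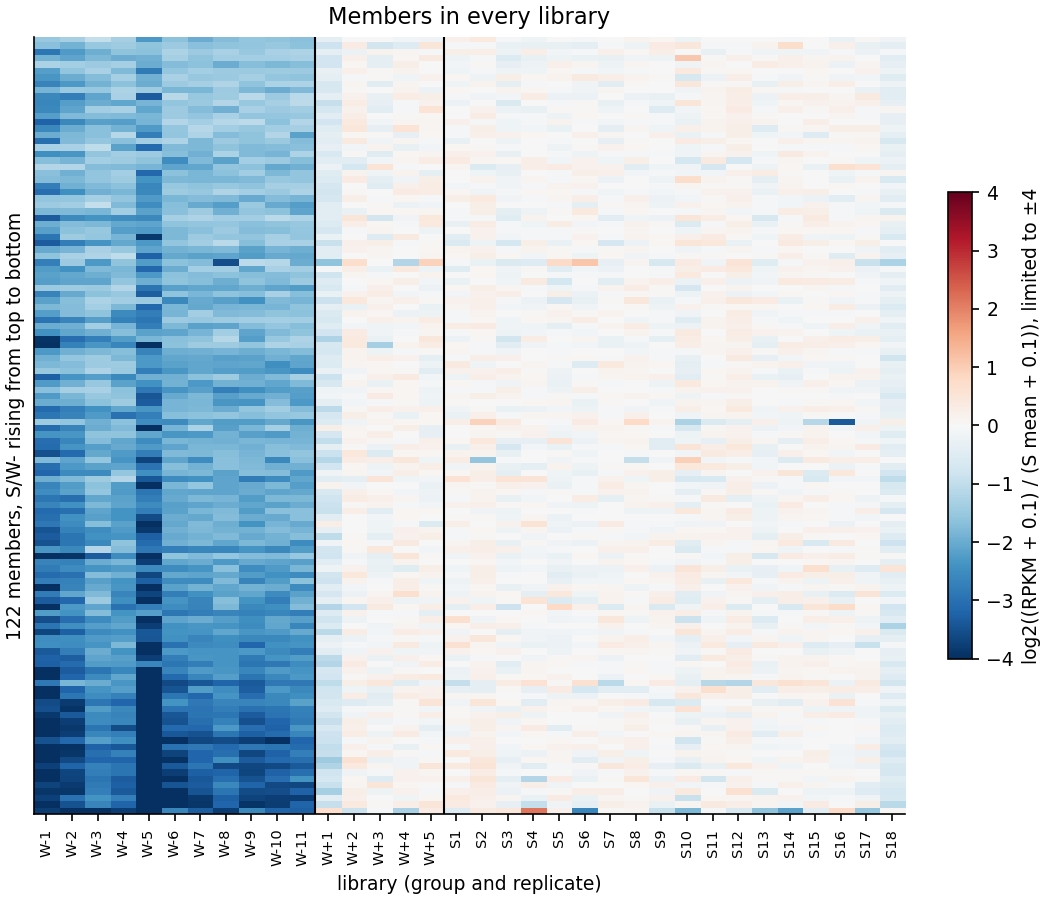
Each row is 1 of the 122 members, ordered by the S/W- ratio from the smallest at the top to the largest at the bottom, and each column is 1 of 34 libraries, with W- left, W+ in the middle and S right. Colour is log2((RPKM + 0.1) / (S mean + 0.1)), limited to 4 either way; W- replicates 1 and 5 are the darkest blue columns, W+ replicate 1 is bluer than the other 4 W+ columns in most rows, and S replicate 18 is pale blue in most rows.

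Counted member by member, the groups separated from W- and mixed with S. Every S value was above every W- value in 118 of 122 members (background 23% of genes tested), and every W+ value was above every W- value in 119 (background 19.8%). For the 1050 genes with a W+/S ratio of 0.6 to 0.9 these shares were 97.4% and 93.9%. For the 472 genes under 0.6 they were 94.5% and 73.1%. The limits on group means favour such separation, so these 2 counts are no result about the members. All 5 W+ values lay within the S range in 32 members, 26.2% against a background of 34.5% of genes tested. The same held for 21.8% of genes with an S mean of 10 RPKM or more, 10.3% of the 1050 genes with a W+/S ratio of 0.6 to 0.9 and 3.60% of the 472 genes under 0.6. The limits on the W+/S ratio favour this order, so this count too is no result about the members. In 56 members 4 of the 5 W+ values lay within the S range, in 27 members 3, and in 7 members 2 or fewer.

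The W+ library outside the S range was mostly the same one. W+ replicate 1 was below every S value in 80 of 122 members and was the lowest W+ value in 109 (89.3%), beside 36.3% of all genes tested. It was the highest W+ value in 4. The pattern was not particular to the members, since replicate 1 was also lowest in 81.6% of the genes with a W+/S ratio under 0.6 and 86.9% of those with 0.6 to 0.9. W+ replicates 2, 3, 4 and 5 were above the highest S value in 12, 5, 11 and 9 members. The number of W+ libraries above the S mean was 2 in 55 members, 3 in 46, 1 in 12 and 4 in 9, and was never 0 or 5.

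The same order appears in the median level of the members per library. Against the S mean, the median member stood at 64.0% in W+ replicate 1, 107% in replicate 2, 98.2% in replicate 3, 105% in replicate 4 and 103% in replicate 5. On the deposited scaling, replicate 1 was thus apart from the other 4. By share of counted reads on members, replicates 2 to 5 held 2.21, 1.84, 1.99 and 2.03%. Each was above every S library, at 1.32 to 1.75%. Replicate 1, at 1.50%, was the smallest in W+ and within that S range. It was also the deepest W+ library, with 8576453 counted reads, and the part of depth in its level was not tested. Without it, the median W+/S ratio of the members was 1.03, 85 of 122 were at 1 or more and 16 exceeded 1.1.

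**Figure D3:**
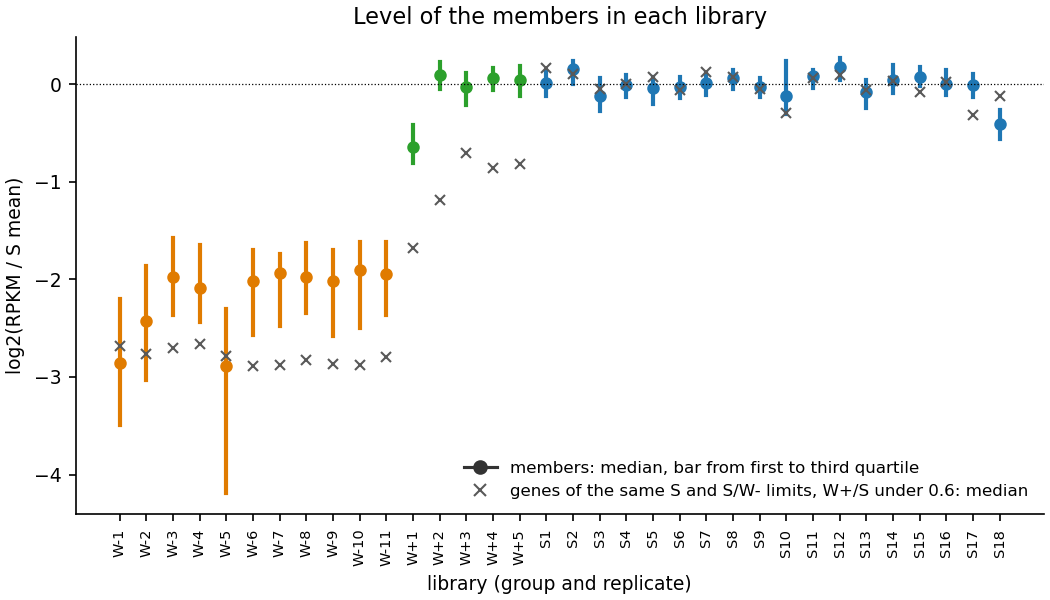
Level of the members in each library as log2(RPKM / S mean): points are medians over the 122 members and bars run over the interquartile range, with W- orange, W+ green and S blue. Crosses are medians over the 472 genes of the same S and S/W- limits with a W+/S ratio under 0.6; 4 W+ libraries sit near 0 for the members while all 5 crosses in W+ lie below -0.7, and W- replicates 1, 2 and 5 are low for the members and not for the crosses.

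Each W+ library also entered the choice, so its level was read again in genes chosen without it. Leaving out W+ replicate 1, the rule gave 273 genes, of which 104 were members, and their median level in replicate 1 was 57.8% of the S mean, with 4 of 273 inside the window of 0.9 to 1.1. Leaving out replicate 2, 3, 4 or 5 gave 98, 129, 97 and 109 genes. Their median levels in the library left out were 101%, 88.9%, 102% and 94.1% of the S mean, with 44, 46, 51 and 47 genes inside the window. The median in the library left out was therefore inside the window for W+ replicates 2, 4 and 5, just below it for replicate 3 and far below it for replicate 1. Even where the median was inside, many single genes were not, as in replicate 4 with 51 of 97 inside.

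**Figure D4:**
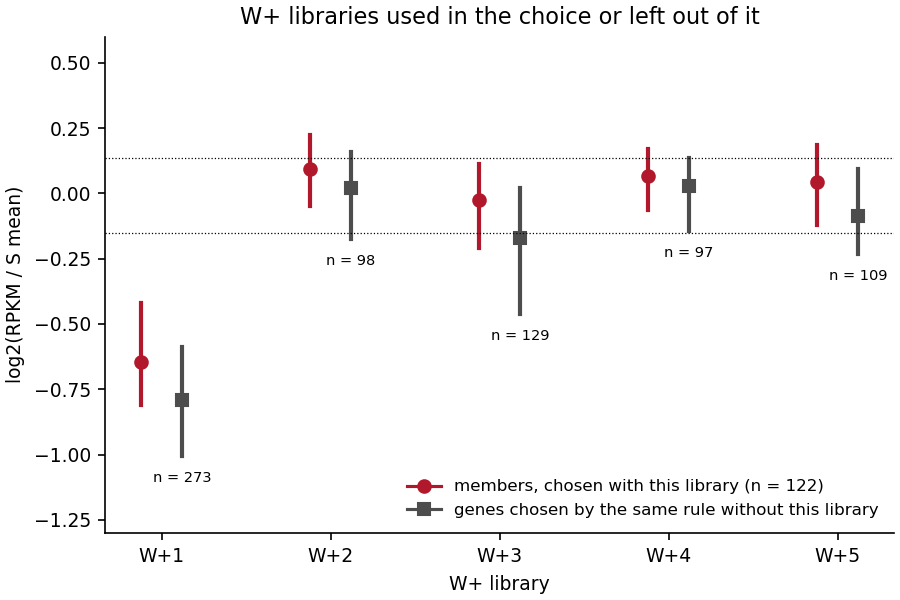
Level in each W+ library as log2(RPKM / S mean), for the 122 members (red circles) and for the genes the same rule chose without that library (grey squares, with their number n). Points are medians, bars run over the interquartile range and dotted lines mark ratios of 0.9 and 1.1; medians in W+ replicates 2, 4 and 5 are inside the lines for both choices, replicate 3 drops just below them when left out, and replicate 1 is far below in both.

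W- libraries differed from each other in the members more than in the comparison genes. The median member stood at 13.8%, 18.6% and 13.5% of the S mean in W- replicates 1, 2 and 5, and at 23.4 to 26.8% in the other 8. On the log2 scale the 11 library medians spanned 0.99 for the members, 0.72 for the 1050 genes with a W+/S ratio of 0.6 to 0.9 and 0.23 for the 472 genes under 0.6. W- replicate 5 was the lowest W- library for 75 members (61.5%), against 50.7% of the 1050 genes and 18.8% of all genes tested. Replicate 1 was lowest for 34 members (27.9%), against 16.9% and 19.6%. Replicate 5 is the shallowest library at 2938627 counted reads while replicate 1 had 9274261, and the part of depth was not tested.

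The levels of these W- libraries are given by S/W- ratio, whose denominator holds the same values. In the 56 members with ratios of 3 to 4, the median level was 21.5%, 26.9% and 20.2% of the S mean in W- replicates 1, 2 and 5, and 29.9 to 32.7% in the other 8. In the 50 members with ratios of 4 to 8, it was 11.7%, 15.5% and 8.93%, against 20.7 to 23.0%. In the 16 members with ratios of 8 or more, it was 5.69%, 7.21% and 1.23%, against 8.02 to 14.8%. The S/W- ratio was thus not a value common to all 11 W- males.

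In S, the median member stood between 91.9% and 113% of the S mean in 17 libraries and at 75.6% in S replicate 18. That library was the lowest S value for 66 of 122 members (54.1%), against 37.9% of the 1050 genes with a W+/S ratio of 0.6 to 0.9 and 10.1% of all genes tested, and the highest for 0. The median level there was -0.40 on the log2 scale in members and -0.34 in those 1050 genes, so the low level was shared with them. Its depth, 7027686 counted reads, is within the range of the other S libraries.

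The spread within groups was larger in both winter groups than in S. The coefficient of variation of RPKM over a group had a median of 15.0% in S, 32.9% in W- and 23.3% in W+ over the members. Counting error alone at the median member's reads would be 4.74%, 7.88% and 4.70%. In genes tested with an S mean of 10 RPKM or more the medians were 14.6%, 25.5% and 20.2%. Over the 1050 genes of the same S and S/W- limits with a W+/S ratio of 0.6 to 0.9 they were 14.4%, 28.2% and 22.8%, and over the 472 genes under 0.6 they were 15.9%, 29.0% and 29.0%. In W+ the members' median was thus close to that of the 1050 genes and below that of the 472, while in W- it was above both. The coefficient was higher in W- than in S for 112 members (91.8%) and for 91.2% of the 1050 genes. It was higher in W+ than in S for 103 members (84.4%) and for 85.1% of the 1050 genes. Across the 122 members, Spearman's rho between the S/W- ratio and the coefficient within W- was 0.58, where a low W- mean enters both.

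**Figure D5:**
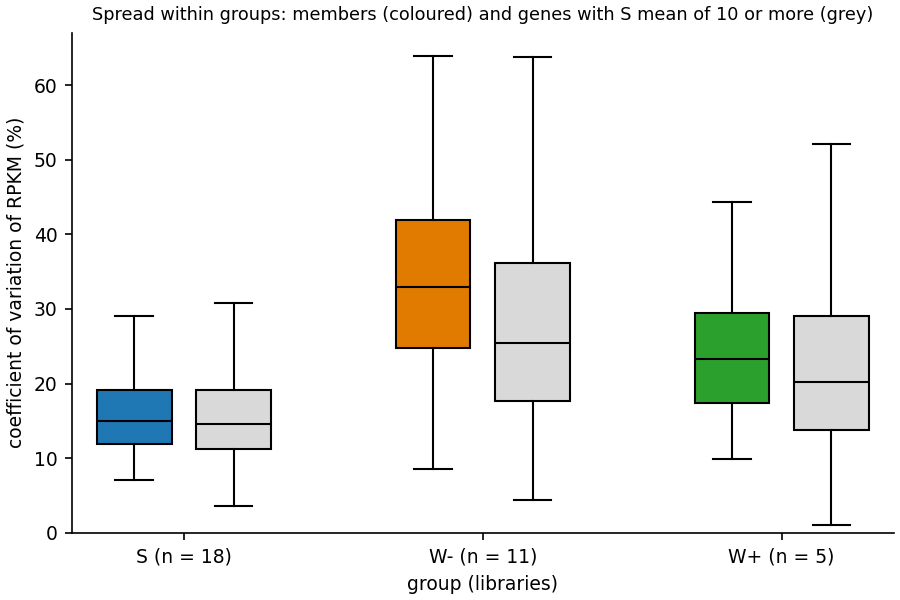
Coefficient of variation of RPKM within each group in percent, for the 122 members (coloured boxes) and for the 8278 genes tested with an S mean of at least 10 RPKM (grey boxes). Boxes run over the interquartile range with a line at the median, points beyond the whiskers are not drawn; medians are 15.0% and 14.6% in S, 32.9% and 25.5% in W-, and 23.3% and 20.2% in W+.

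The members moved together from animal to animal within S and within W-, which group means do not show. Each member's log2 deviations from its group mean were correlated with the median deviation of the other members. The median Pearson's r was 0.52 over 18 S libraries and 0.73 over 11 W- libraries, and was positive in 116 of 122 members in each. Without the 2 libraries farthest from the median, it was 0.30 in S (without replicates 12 and 18, 105 members positive) and 0.43 in W- (without replicates 1 and 5, 101 members positive). Much of the shared movement thus rested on those libraries. W- replicate 2, also low at 18.6% of the S mean, was kept in the 0.43, and the value without it was not computed. The same r against the members' profile had a median of 0.05 in S and -0.03 in W- over all genes tested. For the 472 genes with a W+/S ratio under 0.6 it was 0.26 in S and -0.01 in W-. Without the same libraries it was 0.27 in S, near the members' 0.30, and -0.03 in W-, against 0.43. Those genes thus did not track the members' profile across W- males, while in S the gap rested mostly on replicates 12 and 18. In the 1050 genes with a W+/S ratio of 0.6 to 0.9, library medians were lowest in W- replicates 5, 1 and 2 (log2 -2.79, -2.54 and -2.45). The members' medians were lowest in the same libraries (-2.89, -2.85 and -2.43). In S, both sets were lowest in replicate 18 and highest in replicates 2 and 12. The value of r was not computed for these 1050 genes, so the shared movement is not shown to be particular to the members. The points share a library and its scaling, and 5 W+ libraries were too few for such a value.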

How the data were processed

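Whole-testis libraries from 34 ATS males (18 S, 11 W-, 5 W+) were grouped by the sample labels. Per the submitters' processing notes and the methods, the authors trimmed reads with Trim Galore 0.6.10, checked them with FastQC 0.12.1, aligned them with HISAT2 to MicOch1, counted them per gene with HTSeq and deposited RPKM computed during DESeq2 normalization. The notes list mm10 as the build. For other versions, the annotation release and the strand setting: not given in the sources used here. Without symbols or strand, members that share reads with paralogs or overlapping genes could not be marked.

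The members, gene lists and comparisons were chosen with earlier results of these data known. Of 20821 genes above 0, 100% had values that were whole multiples of 1 read (tolerance 0.02 reads), which gave reads, size factors and exon lengths. Sets of the same S and S/W- limits were read by their W+/S ratio. limma 3.58.1 (R 4.3.3) was fitted to log2(RPKM + 0.1) of genes with at least 0.1 RPKM in at least 5 libraries, with all 34 libraries in 1 fit, after a test on simulated data. Fold changes on that scale understate low genes. Descriptions used Python 3.11.15 with pandas 2.3.3. Intervals of single shares are not given, and reads without molecular identifiers count more than molecules.

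Members were to be named by highest S mean, extreme S/W- ratio, extreme spread and nearness to a limit. With no symbols only the 2 with the highest S means are named. Alternatives covered pseudocounts, filters, scaling, limits of the rule, libraries left out and the replicate number as a block.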

Additional observations from a re-analysis of the deposited data

Results flagged for a closer look

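In 7 measures of the members over the 5 W+ libraries, the most extreme library was set against the others by Dixon's ratio, its gap to the nearest library divided by the range, with a limit of 0.71 for 5 values. In 3 measures, W+ replicate 1 exceeded it: the median level of the members against the S mean (0.837), the median level in genes chosen without the library (0.76) and the number of genes chosen without it (0.818). These 3 are not separate evidence, since each rests on the values of W+ replicate 1. The rule also held the members' W+ mean near the S mean, so the ratios are given as a description. Dixon's ratio was over the limit in 7 of 122 members (5.74%), against 11.4% of all genes tested. In 5 of them W+ replicate 1 was lowest, with ratios of 0.717, 0.711, 0.71, 0.753 and 0.717. In 1 member W+ replicate 3 was highest (0.735) and in 1 member W+ replicate 4 was highest (0.712). Chance passes this limit in about 1 of 20 groups of independent values. The members share the same 5 libraries, so 7 of 122 cannot be judged against that rate.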

How the results depend on the processing

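Over 12 settings besides leaving out libraries, limma called 104 to 122 members higher in S than in W-, 121 to 122 higher in W+ than in W- and 0 between W+ and S, where up to 16 passed an unadjusted p of 0.05 (by totals). Leaving out any 1 of 34 libraries gave 122, 122 and 0. The number of genes the rule takes, 122, moved most: 399 with the wider planned W+/S window (from 0.8), 60 with the narrower one (from 0.95), 287 with S/W- of 2 to 16, 66 with 4 to 16, 292 scaled by totals (0 of the 122 shared) and 299 after quantile normalization (31 shared). Leaving out 1 library gave 97 to 273, the highest without W+ replicate 1. The median log2 W+/S of the members, -0.07, was 0.27 by totals, and -0.12 to 0.04 leaving out 1 library. Their median log2 S/W-, 2.04, was 1.33 by totals and 1.59 after quantile normalization, and 1.99 to 2.06 leaving out 1 library. With the replicate number as a block, 122, 122 and 0 members were called; same-numbered libraries did not deviate together (r from -0.16 to 0.14), so the numbers do not pair the animals and the block changed no call. Chosen after seeing the data, leaving out the 4 deepest S libraries gave 147 genes (114 shared). The causes were not tested. The 2 count models planned on recovered reads were not run, since the deposited unit is RPKM; voom on those reads took their place, chosen after seeing the data. The fit's standard errors, which include the scatter within W-, were above the upper edge of the window (on the log2 scale) for 104 members. With 5 W+ males and these errors, the fit cannot show that a single member is at the S level.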
